A study of Homo sapiens with 54 samples.

Results

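The genes described here are the transcriptional program of activating transcription factor 4 (ATF4) in the integrated stress response. The 41 members were chosen by gene symbol, with no threshold on measured values but with earlier results of these data known, from the 27470 genes of the table. They comprise 7 transcription factors and regulators, 6 stress effectors and feedback genes, 11 genes of amino acid and one-carbon metabolism, 4 amino acid transporters and 13 genes of aminoacyl-tRNA synthetases and tRNA export. Their mRNA was followed in SUM1315 and MDA-MB-468, established triple negative breast cancer (TNBC) cell lines, the first with mutant BRCA1 and the second with wild type BRCA1.

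In the integrated stress response, kinases that sense amino acid shortage, misfolded protein in the endoplasmic reticulum, heme shortage or double-stranded RNA phosphorylate the alpha subunit of the initiation factor eIF2. Most translation then slows, while the ATF4 mRNA is translated more, because short upstream reading frames control its start codon. ATF4 protein, paired with partners such as CEBPG, raises transcription of genes that import and make amino acids and charge tRNAs, and of regulators such as DDIT3 (CHOP), TRIB3 and the eIF2 phosphatase subunit PPP1R15A (GADD34), which feeds back on the pathway. Since much of the control of ATF4 lies in translation, the mRNA values below measure the program by its transcripts and not by ATF4 protein.

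Each line was measured in 9 conditions, with 3 libraries each, 54 in all. Olaparib blocks PARP enzymes, which act in repair of single-strand breaks, and cisplatin (CDDP) crosslinks DNA. Parental SUM1315 cells were left as controls or received 8 µM olaparib, 2 µM CDDP, 4 µM CDDP, or olaparib with either CDDP dose. Parental MDA-MB-468 cells were left as controls or received 3 µM olaparib, 1 µM CDDP, 2.5 µM CDDP, or olaparib with either CDDP dose. Olaparib resistant (OlaR) derivatives of each line were obtained by long, stepwise exposure and were kept in olaparib, at 25 µM for SUM1315 and 15 µM for MDA-MB-468, also in their own controls. OlaR cells were measured without CDDP and with the low and high CDDP dose of their line. Doses are given in micromolar, as in the sample names and the study's methods, while the treatment notes of the labels write millimolar. For the higher CDDP dose of MDA-MB-468 the sample names and the study's methods give 2.5 µM, used here, and the series' design text gives 2 µM. By the study's methods the drugs were given to parental cells overnight. The controls for sequencing are described as untreated, with no vehicle named, so a drug and any vehicle cannot be told apart. There was no OlaR group off olaparib, so resistance, the higher olaparib dose and its longer presence cannot be told apart. Since doses differed between the lines, line and dose cannot be told apart either. The study's methods state that libraries were multiplexed in batches of 27. Which libraries shared a batch was not stated, so whether line or condition went with batch is not known. Whether an OlaR line is 1 clone was not stated in the sources used here.

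Libraries held 2070301 to 9268162 reads, with a median of 6006856. OlaR libraries were shallower than parental ones, with medians of 4455837 against 7331369 reads in MDA-MB-468 and 3900438 against 6173974 in SUM1315. Values are given as adjusted reads, that is, reads per gene after the authors brought every library to a common size of 5585170, and they are rounded to 3 significant digits. The epithelial markers EPCAM and CDH1 were present in every MDA-MB-468 condition, with condition means of 2730 to 3690 and 702 to 969. Both were at or near 0 in SUM1315, which held VIM at 8240 to 13000. The lines were not split by every marker, since KRT8 and KRT18, 2 of 5 epithelial markers, were high enough in SUM1315 to be tested. Of 4 mesenchymal markers, 2 were high enough to be tested in MDA-MB-468. The hormone receptor genes were low, with PGR at or under 2 in both lines, but ESR1 ranged from 128 to 216 in OlaR MDA-MB-468 against 39.3 to 63.4 in its parental conditions. Of the other lineages, PTPRC was at most 3.92 and CD3E at most 0.293, whereas PECAM1 was between 61.9 and 189 in SUM1315. The third libraries of the SUM1315 control, 2 µM CDDP and olaparib groups stood apart from their partners, with counts differing from a partner by a chi-square of up to 20.6 per gene compared, where the median over all replicate pairs was 3.19. Each SUM1315 count below that changes by over 1.5 times without 1 library is given with that value.

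Before the values, the DNA that ATF4 is known to read is shown for the members. ATF4 and its C/EBP partners bind a composite element, searched here as TGATGNAAN on both strands in the RefSeq promoter windows (GRCh38.p14) from 250 bases before to 50 bases after each start site. Of the 41 members, 34 had at least 1 window, and 14 of these, or 41.2%, held the element on either strand, against 4.45% of the 27305 genes with a window. A match is a description of these letters and not a measured binding site. NUPR1, PSPH, SHMT2, ALDH1L2, GPT2, LARS and YARS were not matched to a window. The 14 elements follow, 5′ to 3′ along the strand of the gene, with the 9 letters of the match in capitals and the flanking bases in lower case. Where the capitals end in ATCA the element lies on the strand opposite to the gene.
CEBPG (chr19:33374061-33374089, plus strand): gcgcggcgtcTGATGCAACctgccggcaa
JDP2 (chr14:75427996-75428024, plus strand): tagccggggcTGATGCAACccgtcccgcc
CHAC1 (chr15:40953251-40953279, plus strand): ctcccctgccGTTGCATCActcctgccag
ASNS (chr7:97872458-97872486, minus strand): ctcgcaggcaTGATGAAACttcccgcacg
SLC3A2 (chr11:62881725-62881748, plus strand): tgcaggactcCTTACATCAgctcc
SLC7A1 (chr13:29595663-29595691, minus strand): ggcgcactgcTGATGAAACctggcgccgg
SLC1A5 (chr19:46784893-46784921, minus strand): aggaagtggcTGATGCAAGctgtccaggg
AARS (chr16:70289676-70289704, minus strand): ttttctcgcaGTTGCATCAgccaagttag
GARS (chr7:30594834-30594862, plus strand): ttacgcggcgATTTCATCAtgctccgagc
MARS (chr12:57488053-57488081, plus strand): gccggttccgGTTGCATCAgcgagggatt
NARS (chr18:57621804-57621832, minus strand): ctacgctctcTGATGCAACgccggaatcg
IARS (chr9:92293693-92293721, minus strand): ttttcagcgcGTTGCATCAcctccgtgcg
CARS (chr11:3057408-3057436, minus strand): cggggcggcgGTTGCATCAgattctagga
TARS (chr5:33440956-33440984, plus strand): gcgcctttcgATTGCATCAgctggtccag
Elements on the strand of the gene were found in 6 members and on the other strand in 8. Distances are counted from the first base of the element along the gene. The elements of CARS and MARS began 3 and 5 bases before a start site and so, at 9 bases, spanned it. That of TARS began 1 base after its start site, and that of CHAC1 was the most distant, beginning 210 bases before it. Of the regulators with a window, CEBPG and JDP2 held the element and ATF4, DDIT3, CEBPB and TRIB3 did not. Among the 13 synthetase and export genes 7 held it.

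For CHAC1, STC2, SLC3A2 and ASNS the 250 bases before the start site are given, since these members had the smallest adjusted p among those that changed at least 2-fold with CDDP, all with the high dose added to olaparib in MDA-MB-468. Capitals again mark the element, and a window without capitals has no match in this stretch.
CHAC1 (chr15:40953221-40953470, plus strand): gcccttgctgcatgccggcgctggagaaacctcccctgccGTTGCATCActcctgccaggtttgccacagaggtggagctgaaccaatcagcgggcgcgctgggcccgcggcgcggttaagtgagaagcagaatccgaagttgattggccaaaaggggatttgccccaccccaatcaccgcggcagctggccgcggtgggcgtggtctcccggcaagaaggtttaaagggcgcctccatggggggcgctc
STC2 (chr5:173328415-173328664, minus strand): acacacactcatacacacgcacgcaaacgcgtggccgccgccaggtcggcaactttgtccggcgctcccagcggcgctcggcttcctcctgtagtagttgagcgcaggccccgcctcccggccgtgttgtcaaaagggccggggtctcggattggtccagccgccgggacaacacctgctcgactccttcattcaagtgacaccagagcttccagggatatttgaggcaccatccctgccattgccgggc
SLC3A2 (chr11:62881449-62881698, plus strand): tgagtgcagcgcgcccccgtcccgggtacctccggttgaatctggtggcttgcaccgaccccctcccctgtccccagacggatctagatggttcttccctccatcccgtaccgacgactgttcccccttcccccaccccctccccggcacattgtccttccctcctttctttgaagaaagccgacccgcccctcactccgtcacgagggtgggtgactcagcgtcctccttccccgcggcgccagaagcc
ASNS (chr7:97872409-97872658, minus strand): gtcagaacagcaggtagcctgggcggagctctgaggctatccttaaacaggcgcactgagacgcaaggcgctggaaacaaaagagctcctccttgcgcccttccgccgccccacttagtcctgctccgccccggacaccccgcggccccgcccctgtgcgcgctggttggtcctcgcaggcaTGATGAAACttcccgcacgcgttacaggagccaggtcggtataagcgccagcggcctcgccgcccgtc
CHAC1 and ASNS each held 1 match in these bases. STC2 and SLC3A2 held none here, although SLC3A2 had a match 36 bases after its start site, listed above.

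Each comparison below was tested with limma on log2(adjusted reads + 1) over all genes with at least 10 adjusted reads in at least 3 libraries, which left 13133 genes for SUM1315 and 13012 for MDA-MB-468. A gene is called where its p, adjusted by the Benjamini-Hochberg method over all those genes, is at most 0.05, and it is a differentially expressed gene (DEG) where it also differs at least 2-fold. The labels do not say whether the 3 libraries of a condition came from separate cultures, so the p-values measure the spread between these libraries, which may be technical. Differences are on that log2 scale with their standard error (SE). Of the 41 members, 40 were tested. CBS, which condenses homocysteine with serine, was listed at 0 in every library. Its near-identical copy CBSL was at 0 as well, so its level is uncertain. DDIT3 and MARS lie on chromosome 12 with overlapping 3′ ends in RefSeq, DDIT3 from 57516588 to 57520517 and MARS from 57488068 to 57516652. Whether counting used the strand was not given in the sources used here, so reads in the overlap cannot be told apart.

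The first comparison set parental cells given olaparib alone against the control libraries of their line. In SUM1315, 32 of the 40 members fell and 0 rose, while 17.1% of all genes tested fell and 18.9% rose. The members' median difference was -0.76, against 0.00 over all genes, and 14 members were DEGs, where 4.36% of all genes were DEGs that fell. Of the 7 regulators 6 fell, and the regulators had the lowest median of the role groups at -1.41. ATF4 stood at 4960, 4730 and 7590 adjusted reads in the 3 control libraries and at 2190, 2130 and 2290 with olaparib, a difference of -1.35 (SE 0.12, adjusted p = 1.82e-10). No olaparib library reached a control library, and without the third control library, which was the highest, the difference was -1.14. NUPR1, a small stress-induced chromatin protein, dropped furthest, from 1350, 1450 and 1620 to 319, 241 and 344 (difference -2.30, SE 0.15, adjusted p = 1.39e-13). JDP2, a bZIP repressor, went from 325, 351 and 505 to 121, 101 and 112 (-1.79). TRIB3, a pseudokinase induced by ATF4 and DDIT3 that restrains both, went from 1990, 1950 and 1710 to 642, 625 and 622 (-1.57). DDIT3, the CHOP transcription factor, went from 164, 157 and 160 to 53.1, 63.2 and 63 (-1.41). CEBPB was the regulator that did not pass, with a difference of -0.12 (adjusted p = 0.501).

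Among the SUM1315 effectors, 4 of 6 fell with olaparib and all 4 were DEGs. STC2, a secreted glycoprotein, had 1830, 1860 and 1180 adjusted reads in the controls and 425, 473 and 384 with olaparib (-1.90, SE 0.14, adjusted p = 9.24e-13). CHAC1, a glutathione-degrading enzyme, had 508, 538 and 595 against 179, 182 and 148 (-1.69). PPP1R15A had 861, 836 and 770 against 385, 336 and 340 (-1.22). In each of these genes the groups were apart in every library. SESN2, which restrains mTORC1, had 1100, 1040 and 1520 against 606, 617 and 504 (-1.07). The third control library was the highest for SESN2, so its place among the DEGs rests in part on that library. DDIT4, another inhibitor of mTORC1, did not pass, at 3500, 3620 and 2460 against 3800, 3840 and 3390 (0.22, adjusted p = 0.155).

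The metabolic genes moved the same way, 8 of 10 falling. ASNS, which makes asparagine, went from 2540, 2420 and 2960 adjusted reads to 659, 633 and 837 (-1.90, SE 0.14, adjusted p = 7.5e-13). GPT2, a mitochondrial alanine transaminase, went from 1530, 1530 and 1700 to 576, 542 and 418 (-1.64). PSAT1 of the serine pathway fell less, from 1040, 1020 and 830 to 627, 722 and 624 (-0.55). CTH, which makes cysteine, and ALDH1L2, a mitochondrial folate enzyme with under 14 adjusted reads in each of these libraries, did not pass. Of the transporters 3 of 4 fell, SLC7A5, the large neutral amino acid carrier, from 4100, 4230 and 5100 to 2340, 2400 and 1780 (-1.05), while its partner chain SLC3A2 did not pass (-0.11, adjusted p = 0.547). Over 14 alternative fits the SLC7A5 difference was as weak as -0.91, still called and under 2-fold. Of the synthetase and export genes 11 of 13 fell. SARS, the seryl-tRNA synthetase, went from 2650, 2340 and 3420 to 966, 1020 and 1080 (-1.44), and AARS, the alanyl-tRNA synthetase, from 1840, 1880 and 2320 to 944, 884 and 926 (-1.12).

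In MDA-MB-468, 37 of the 40 members fell with olaparib and 0 rose, against 9.11% and 12.4% of all genes. The median difference of the members was -0.54 and that of all genes 0.01, and 6 members were DEGs, where 1.08% of all genes were DEGs that fell. Neither line had a member that rose by limma, edgeR or DESeq2, or at an unadjusted p under 0.05, for each of which the count was 0. CHAC1 stood apart from the rest, falling from 347, 375 and 313 adjusted reads to 42.2, 58.9 and 44.8 (-2.81, SE 0.13, adjusted p = 9.69e-23). STC2 went from 746, 859 and 868 to 247, 236 and 274 (-1.70). TRIB3 went from 1180, 1170 and 1240 to 518, 523 and 565 (-1.16). These groups were far apart, in contrast to ATF4 itself, which had 3740, 3890 and 3730 in the controls and 3450, 3280 and 3440 with olaparib (-0.16, SE 0.05, adjusted p = 0.0241). That call was lost in 3 of 14 alternative fits.

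All 10 tested metabolic genes and all 4 transporters fell with olaparib in MDA-MB-468, as did 11 of 13 synthetase and export genes. ASNS went from 502, 450 and 472 adjusted reads to 215, 191 and 241 (-1.14). ALDH1L2 went from 153, 139 and 172 to 70.8, 70 and 87.6 (-1.02). SLC3A2, the heavy chain shared by several amino acid carriers, went from 1280, 1270 and 1260 to 666, 624 and 590 (-1.02). These 3 genes were lower in every olaparib library than in any control. SESN2 (289, 262 and 243 against 140, 134 and 129, -0.97), SLC7A5 (1380, 1620 and 1500 against 784, 740 and 905, -0.89) and PSAT1 (800, 913 and 731 against 452, 509 and 452, -0.79) fell by less than 2-fold. DDIT3 went from 68.2, 66 and 49.4 to 32.3, 41.1 and 26 (-0.87), and DDIT4 from 2280, 2140 and 2270 to 1820, 1830 and 1600 (-0.36). VLDLR, a lipoprotein receptor, WARS and EPRS did not pass.

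**Figure D1:**
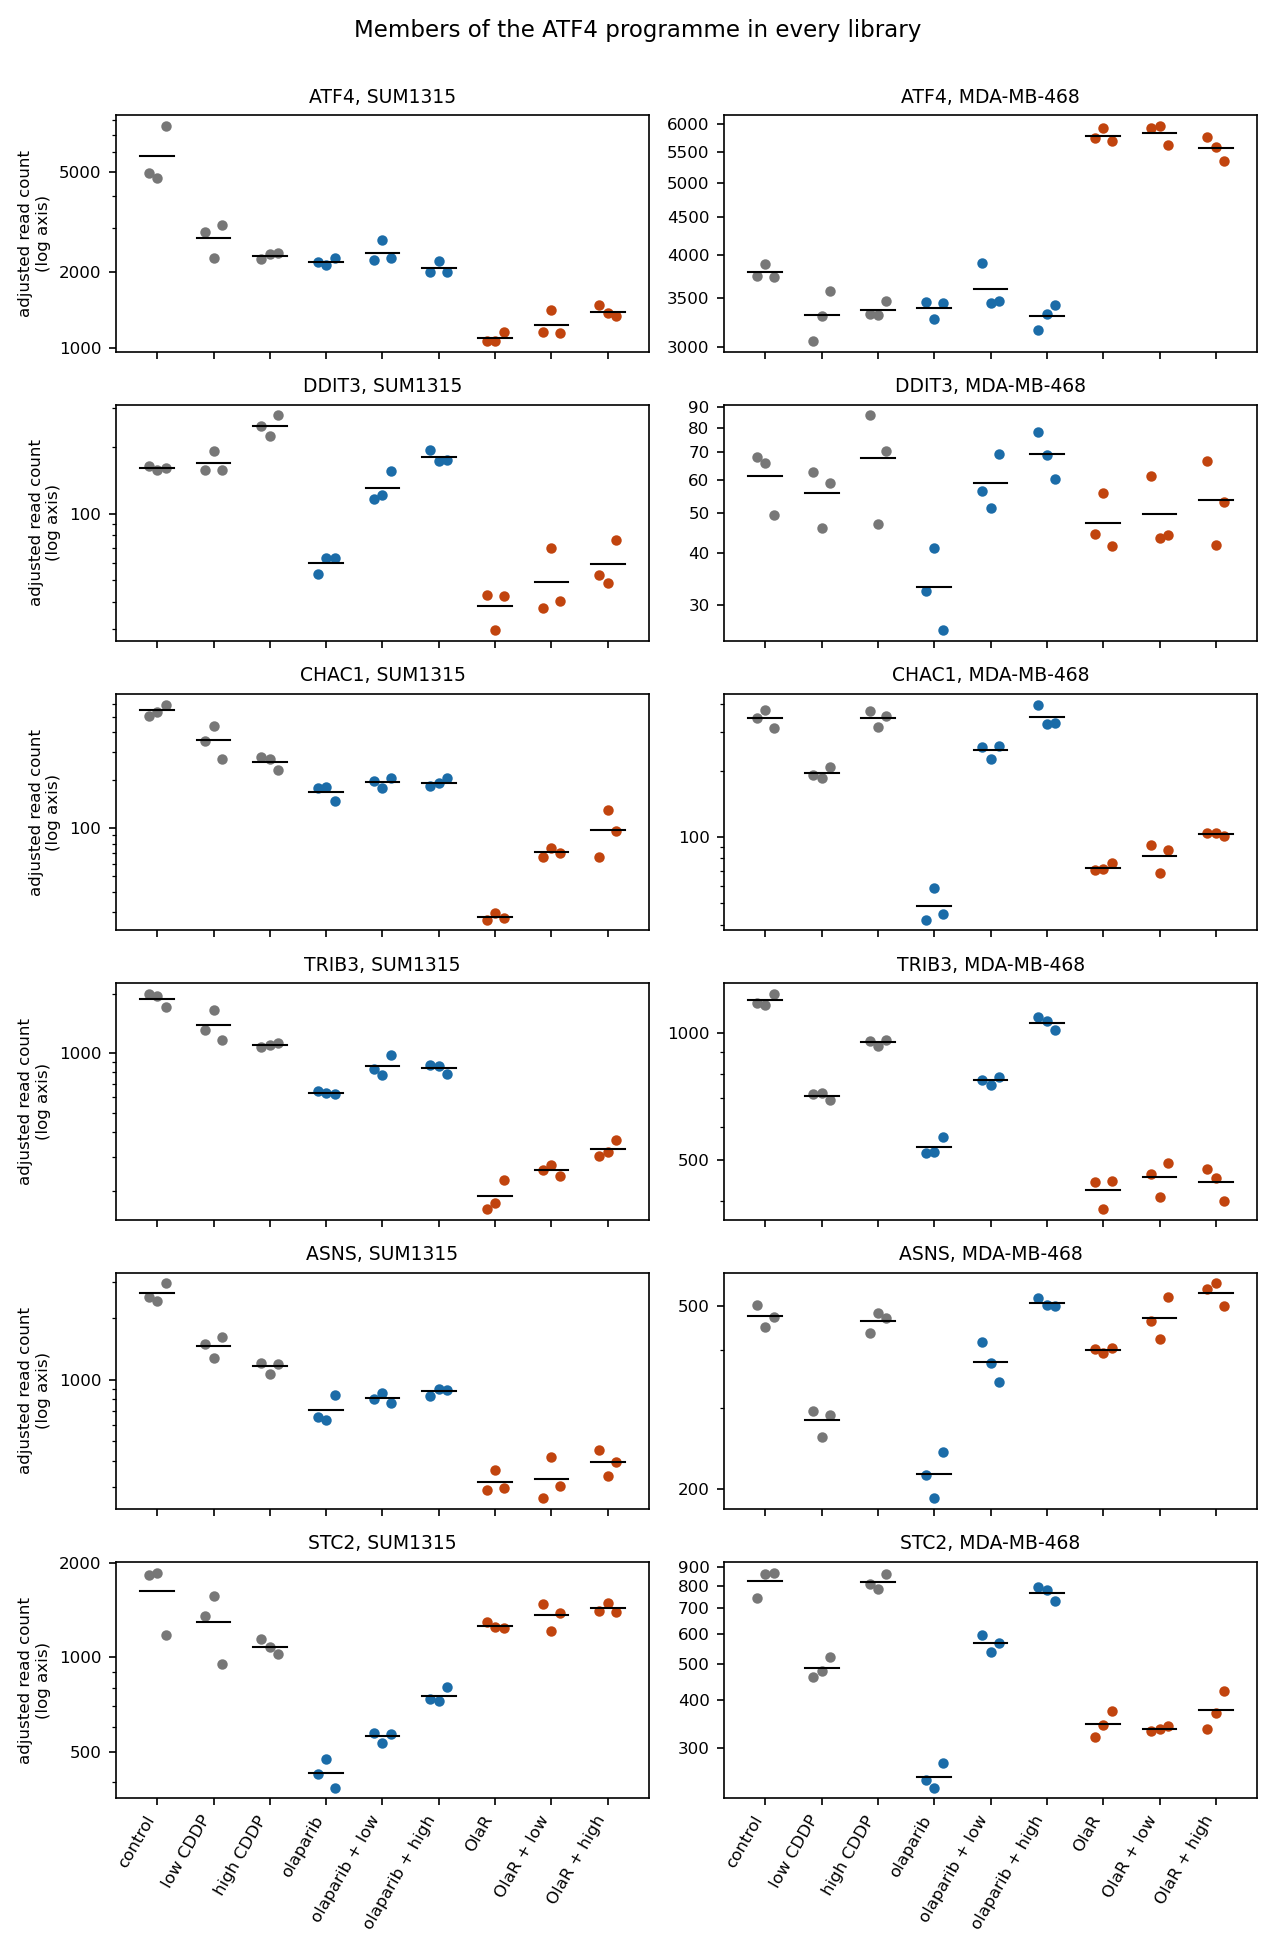
Adjusted reads (log scale) of ATF4, DDIT3, CHAC1, TRIB3, ASNS and STC2 in each of the 54 libraries, by condition and line; points are libraries, horizontal bars are means of 3, and colours separate parental cells without olaparib (grey), with olaparib (blue) and OlaR cells (orange). CHAC1 in MDA-MB-468 is lowest with olaparib alone, at 42.2 to 58.9, and is at 325 to 398 once 2.5 µM CDDP is added.

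The second comparison gave CDDP alone, against the same control libraries as olaparib above. In SUM1315 the low dose was followed by 16 members lower and 4 higher, against 14.5% and 19.4% of all genes, with member and overall medians of -0.23 and 0.01. Without the third control library the total of 20 called members became 12. The high dose was followed by 20 members lower and 2 higher, against 21.7% and 22.2% of all genes, and a member median of -0.30 against 0.00. ATF4 fell at both doses, to 2880, 2270 and 3070 adjusted reads at 2 µM (-1.05, SE 0.12) and to 2260, 2360 and 2380 at 4 µM (-1.27, SE 0.12, adjusted p = 3.83e-10). It was the only member DEG of the low dose, where 3.38% of all genes were DEGs that fell, and without the third control library these differences were -0.83 and -1.05. The other DEGs of the high dose were ASNS at 1210, 1070 and 1190 (-1.18), CHAC1 at 280, 272 and 230 (-1.07), GPT2 at 745, 809 and 727 (-1.06) and JDP2 at 164, 192 and 203 (-1.05), all below every control library, and 8.16% of all genes were DEGs that fell. Without the third control library ASNS and CHAC1 differed by -1.1 and -1.01. JDP2 had its highest control value, 505, in that library, against 325 and 351 in the others. The members that rose with the high dose were DDIT3, to 249, 224 and 278 (0.63, SE 0.21, adjusted p = 0.0135), and PPP1R15A, to 1170, 1100 and 1120 (0.46, SE 0.10, adjusted p = 0.000235). The DDIT3 call was lost in 1 of 14 alternative fits, without the third library of 4 µM CDDP (0.55, adjusted p = 0.0627). TRIB3 fell to 1070, 1100 and 1130 (-0.77), SESN2 to 703, 681 and 745 (-0.76), SLC7A5 to 2400, 2560 and 2420 (-0.86) and DDIT4 to 2070, 2000 and 2100 (-0.61). PSAT1 stayed within the spread, at 874, 1020 and 969 (-0.01, adjusted p = 0.954). Both epithelial markers tested in this line were higher at each dose, KRT8 by 1.73 and 1.47 and KRT18 by 0.34 and 0.60, and 2 of 4 mesenchymal markers were lower at each, FN1 by -0.81 at both. KRT8 was also 1.48 higher with olaparib alone, where KRT18 (-0.49) and FN1 (-0.47) were lower. The part of these markers in the members' values was not tested.

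In MDA-MB-468 the low CDDP dose lowered 23 members and raised 1, MTHFD2 of mitochondrial folate metabolism (0.19), against 9.41% and 10.6% of all genes. The high dose lowered 9 and raised 6, against 11.8% and 13.3%, with a member median of -0.05. No member was a DEG at either dose. At the low dose the smallest adjusted p values belonged to SLC7A1, the cationic amino acid carrier (-0.68), CEBPB (-0.73) and TRIB3 (-0.75). CHAC1 was intermediate at the low dose, with 191, 185 and 208 adjusted reads (-0.82), and was within the control range at the high dose, with 374, 315 and 352 (0.01, SE 0.13, adjusted p = 0.973). The 6 members that rose at the high dose were MTHFD2 (0.80, SE 0.06, adjusted p = 1.75e-15), CTH (0.80), PSPH (0.49), SESN2 (0.48), PCK2 (0.34) and SHMT2 (0.25), 5 of them metabolic genes. MTHFD2 had 1840, 2040 and 1900 adjusted reads against 1100, 1100 and 1110 in the controls. SLC7A1 (-0.43), CEBPB (-0.42) and SLC7A5, at 974, 1030 and 1140 (-0.52), were among the 9 that fell. ATF4 had 3060, 3310 and 3580 at the low dose (-0.19) and 3330, 3320 and 3460 at the high dose (-0.17, adjusted p = 0.0146), calls that held in 13 and 11 of 14 alternative fits. DDIT3 at 86, 47.1 and 70.7 (0.12, adjusted p = 0.768) overlapped the controls, as did ASNS at 437, 482 and 470.

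The difference between the lines in the response to high CDDP alone, tested over 14460 genes, passed for 20 members. In 18 the difference was higher in MDA-MB-468 and in 2 lower, against 13.9% and 13.7% of all genes. ATF4 (1.10, SE 0.14, adjusted p = 5.07e-08), GPT2 (1.05), SESN2 (1.24), ASNS (1.15), NUPR1 (1.08) and CHAC1 (1.08) differed by more than 2-fold, as 6.72% of all genes did in that direction. Without the third SUM1315 control library the ATF4 difference was 0.89, and over 20 alternative fits that of CHAC1 was as low as 0.99, both still called and under 2-fold. The doses were 2.5 µM in MDA-MB-468 and 4 µM in SUM1315.

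**Figure D2:**
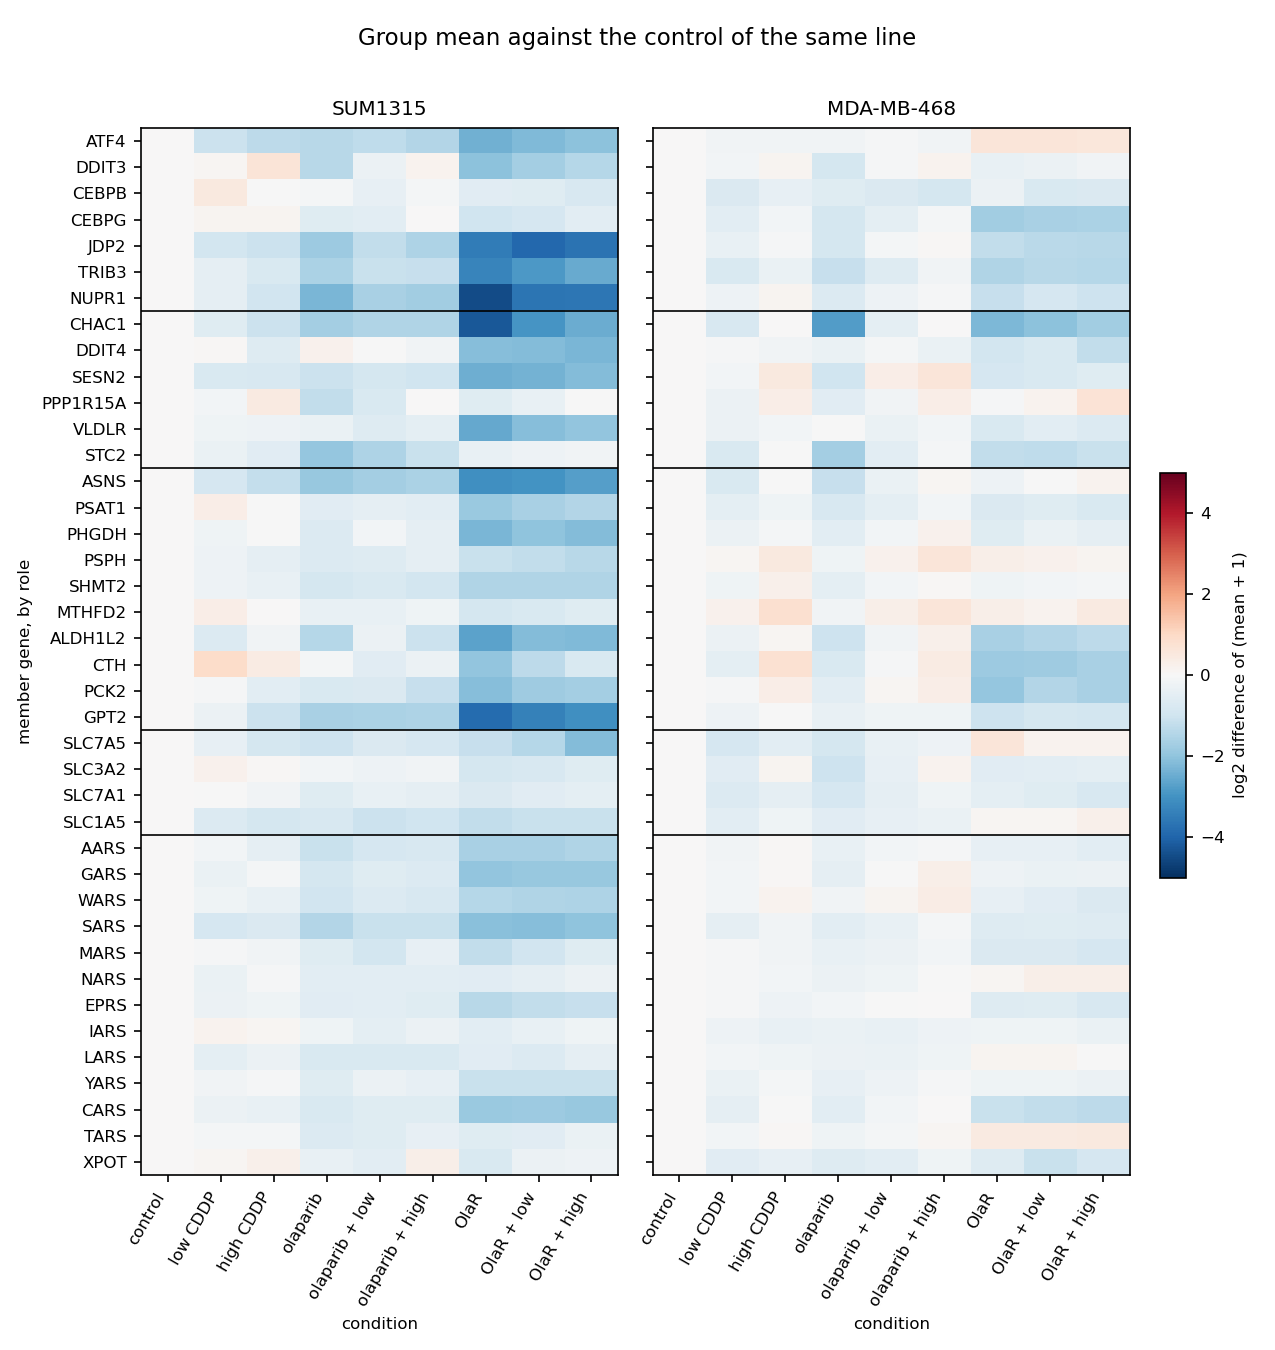
Difference of the condition mean from the control mean of the same line, as log2 of (mean adjusted reads + 1), for the 40 tested members in rows grouped by role and the 8 treated conditions of each line in columns; red is higher and blue lower than control. Olaparib alone is blue for nearly all members in both lines, and the OlaR columns of SUM1315 are the darkest blue.

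The third comparison asked how CDDP acted in parental cells that also received olaparib, and the lines gave different counts. In MDA-MB-468, adding the low dose to olaparib raised 24 members and lowered 0, where 2.30% of all genes rose and 2.97% fell. Counts of members lowered were 0 by edgeR and DESeq2 also, and 1 at an unadjusted p under 0.05. The high dose raised 30 and lowered 1, CEBPB (-0.27), where 10.1% rose and 13.1% fell. The members' median difference was 0.37 at the low and 0.63 at the high dose, against 0.00 over all genes at both. CHAC1 rose from 42.2, 58.9 and 44.8 adjusted reads with olaparib to 257, 226 and 259 with the low dose (2.34, SE 0.13) and 398, 325 and 327 with the high dose (2.83, SE 0.13, adjusted p = 2.37e-23). STC2 rose from 247, 236 and 274 to 594, 536 and 566 and then 795, 783 and 730 (1.16 and 1.61). SESN2 rose from 140, 134 and 129 to 376, 343 and 293 and then 401, 384 and 436 (1.32 and 1.59). None of the treated libraries of these genes fell to the level of olaparib alone. Of all genes 0.146% were DEGs that rose at the low dose and 1.28% at the high dose, and of the members 3 and 8.

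Of the other groups in MDA-MB-468 under olaparib with the high dose, 9 of 10 metabolic genes, 4 of 4 transporters and 8 of 13 synthetase and export genes rose. ASNS reached 519, 501 and 498 adjusted reads (1.23), ALDH1L2 177, 181 and 194 (1.27), and CTH 196, 150 and 120 from 59.8, 71.6 and 71.1 (1.17). SLC3A2 reached 1510, 1420 and 1420 (1.21, SE 0.07, adjusted p = 3.02e-20). Each was above every library with olaparib alone. DDIT3 reached 78.5, 68.9 and 60.5 (1.06), TRIB3 1090, 1070 and 1020 (0.99), PSAT1 773, 720 and 758 (0.67) and SLC7A5 1090, 1300 and 1380 (0.63). ATF4, at 3170, 3330 and 3420 (-0.04, adjusted p = 0.683), and DDIT4, at 1900, 1670 and 1690 (0.00, adjusted p = 0.974), overlapped the olaparib libraries. The mesenchymal marker VIM, low in this line, differed by -1.45 in the same comparison and 3 of 5 epithelial markers were lower, and their part in these values was not tested.

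In SUM1315, adding the low dose to olaparib raised 7 members and lowered 0, where 2.09% of all genes rose and 1.67% fell, and adding the high dose raised 10 and lowered 1, where 4.35% rose and 4.09% fell. The count lowered by the low dose was 0 by edgeR and DESeq2 also, and 3 at an unadjusted p under 0.05. Leaving out 1 library moved these totals: the 7 became 1 without the second olaparib library, and the 11 became 4 without the second library of olaparib with 4 µM CDDP. DDIT3 rose from 53.1, 63.2 and 63 adjusted reads to 117, 122 and 155 at the low dose (1.12, SE 0.21, adjusted p = 0.00177) and to 193, 172 and 175 at the high dose (1.58, SE 0.21, adjusted p = 3.65e-06). PPP1R15A rose from 385, 336 and 340 to 542, 430 and 483 and then 827, 866 and 839 (0.45 and 1.25). DDIT3 was the only member DEG of the low dose and both genes those of the high dose, where 0.312% and 0.845% of all genes were DEGs that rose. Both were called at the high dose in 14 of 14 alternative fits, and at the low dose PPP1R15A in 12 of 14 (adjusted p up to 0.06), lost without the second olaparib library or the first of olaparib with 2 µM CDDP. None of their treated libraries overlapped those with olaparib alone. STC2 rose to 733, 724 and 806 at the high dose (0.82) and TRIB3 to 869, 864 and 788 (0.42). DDIT4 fell to 3120, 2770 and 2540 (-0.39). CHAC1, at 183, 192 and 205 (0.19, adjusted p = 0.581), ASNS, at 832, 903 and 893 (0.31, adjusted p = 0.156), and ATF4, at 2000, 2220 and 2010 (-0.09, adjusted p = 0.746), did not pass, nor did PSAT1 at 719, 663 and 631, SESN2 at 559, 570 and 707 or SLC7A5 at 2450, 2340 and 2650.

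The line difference in the response to high CDDP under olaparib passed for 14 members, all higher in MDA-MB-468, where 0.871% of all genes were higher and 0.996% lower. CHAC1 differed most (2.64, SE 0.22, adjusted p = 4.76e-12), followed by SESN2 (1.51), CTH (1.36), PCK2, the mitochondrial PEP carboxykinase (1.26), and SLC3A2 (1.25), all by at least 2-fold, as 0.401% of all genes did in that direction. CTH was called in 16 of 20 alternative fits (adjusted p up to 0.0848), and each of the 4 that lost it left out 1 library. No member was lower by edgeR or DESeq2, with a count of 0, and 1 was at an unadjusted p under 0.05. DDIT3 did not pass (-0.52, SE 0.31, adjusted p = 0.565).

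Set the other way, olaparib was compared with its absence in cells that all received high CDDP. In MDA-MB-468 4 members were higher and 4 lower, where 4.63% and 7.29% of all genes were, and the member median was 0.05. CHAC1 had 398, 325 and 327 adjusted reads with olaparib and 374, 315 and 352 without (0.01, SE 0.13, adjusted p = 0.978). The count of 8 became 3 without the third library of olaparib with 2.5 µM CDDP and 5 without the second library of either group. In SUM1315 1 member was higher, DDIT4 (0.45), and 20 were lower, where 6.32% and 6.52% of all genes were. The member median was -0.39, and no member differed 2-fold. SHMT2 (-0.54), GARS (-0.59) and WARS (-0.45), a hydroxymethyltransferase and the glycyl- and tryptophanyl-tRNA synthetases, along with NUPR1 (-0.79), were among the 20.

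Whether the effect of olaparib differed with and without high CDDP was tested as a difference of these differences, a comparison chosen after the data had been seen. A positive difference means an olaparib effect that was less negative, or more positive, with CDDP than without. In MDA-MB-468 30 members were called with a positive difference and 0 with a negative one, where 8.14% and 12.0% of all genes were. The median olaparib effect over these members' list was -0.54 without CDDP and 0.05 with it. The count with a negative difference was 0 by edgeR and DESeq2 and at an unadjusted p under 0.05, in both lines. CHAC1 differed by 2.82 (SE 0.19, adjusted p = 2.96e-16), STC2 by 1.62, TRIB3 by 1.31, ASNS by 1.27 and SLC7A1 by 1.05, and 9 members by at least 2-fold, as 1.06% of all genes did in that direction. In SUM1315 20 members were called with a positive difference, where 9.92% of all genes had a positive and 11.6% a negative one. ASNS (1.49, SE 0.19, adjusted p = 6.92e-07), NUPR1 (1.52), STC2 (1.38) and SARS (1.04) were among the 10 at least 2-fold higher, as 4.05% of all genes were. ATF4 differed by 1.18 in SUM1315 and by 0.13 in MDA-MB-468 (adjusted p = 0.238).

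**Figure D3:**
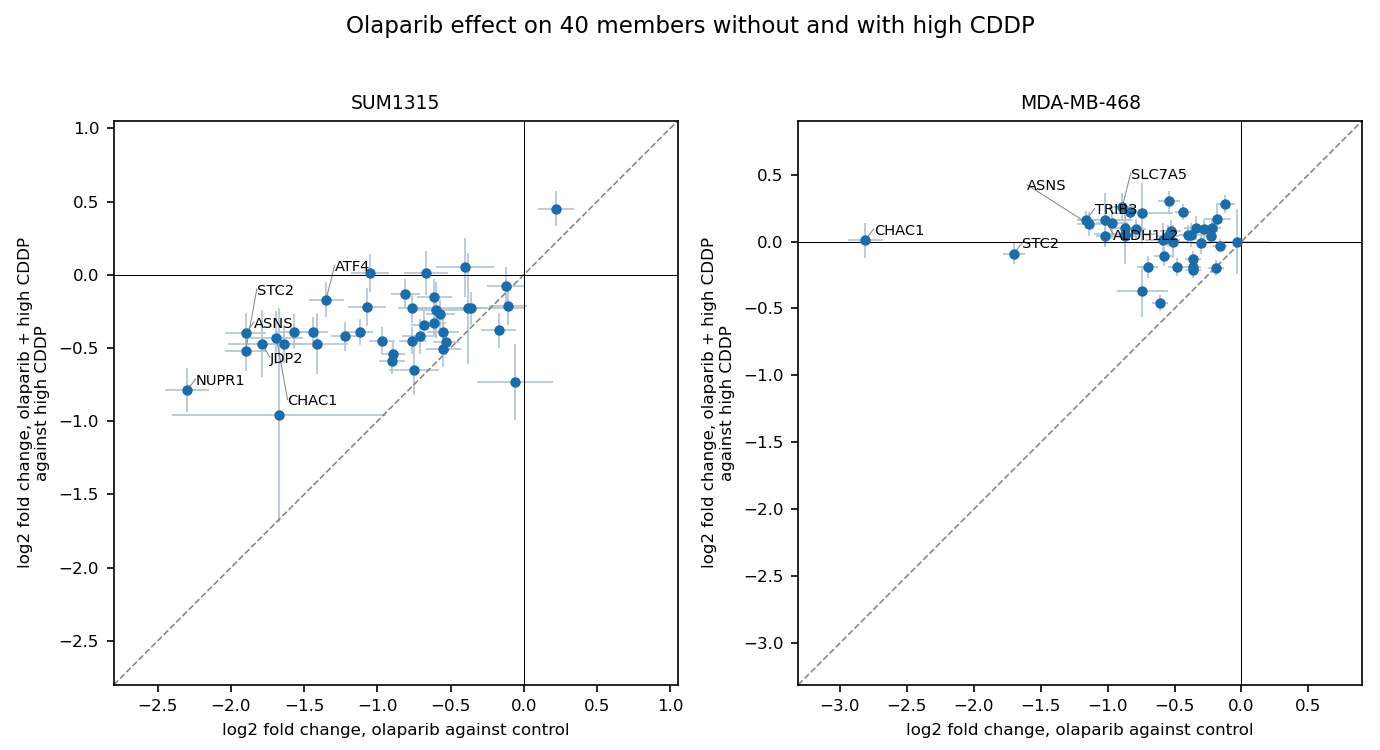
Olaparib effect on each of the 40 tested members without CDDP (x axis) and under high CDDP (y axis), as log2 differences with SE bars, SUM1315 left and MDA-MB-468 right; the dashed line marks equal effects. The axes share no library. Points of MDA-MB-468 lie near 0 on the y axis, while CHAC1 reaches -2.81 on the x axis, and those of SUM1315 have medians of -0.76 and -0.39.

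The fourth comparison set OlaR cells against parental cells given olaparib. It uses the same olaparib libraries as the comparisons above, so these are not independent of each other. In SUM1315, 31 members were lower in OlaR and 2 higher, where 25.7% of all genes were lower and 21.6% higher. The member median was -0.63 against -0.05. As DEGs 16 members were lower and 1 higher, and of all genes 9.06% and 7.52%. CHAC1 had 26.7, 29.2 and 27.3 adjusted reads in OlaR against 179, 182 and 148 in olaparib-treated parental cells (-2.56, SE 0.18, adjusted p = 1.57e-13). DDIT4 had 736, 675 and 765 against 3800, 3840 and 3390 (-2.34, SE 0.12, adjusted p = 7.67e-17). NUPR1 had 61.5, 52.9 and 83.3 against 319, 241 and 344 (-2.18). The groups were separated by several fold in each of these genes, although CHAC1 rested on only 17 whole reads in each OlaR library.

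ATF4 itself had 1070, 1070 and 1160 adjusted reads in OlaR SUM1315 against 2190, 2130 and 2290 (-1.0, SE 0.12, adjusted p = 4.08e-08), JDP2 22.4, 24.8 and 56.1 against 121, 101 and 112 (-1.78), and TRIB3 163, 175 and 228 against 642, 625 and 622 (-1.75). All 7 regulators were lower, DDIT3 with 42.8, 29.7 and 42.4 (-0.64, called in 13 of 14 alternative fits). SESN2 had 236, 211 and 224 (-1.36), and VLDLR 15.8, 10.4 and 4.39 against 71.5, 37.7 and 44 (-2.31). Of the metabolic genes 9 of 10 were lower, 6 of them DEGs. GPT2 had 123, 105 and 103 (-2.19), CTH 24.9, 23.1 and 50.5 against 124, 158 and 93.9 (-1.96), and ASNS 290, 362 and 295 (-1.16). PHGDH, which opens the serine pathway, had 254, 248 and 196 against 621, 622 and 855 (-1.58), PCK2 74.3, 94.8 and 77.4 against 192, 203 and 245 (-1.37), and PSAT1 257, 280 and 258 (-1.31). GARS, at 544, 524 and 523 against 1070, 1050 and 1270 (-1.08), and CARS, the cysteinyl-tRNA synthetase, at 838, 791 and 757 against 1770, 1750 and 1550 (-1.08), were the synthetase DEGs. SLC7A5 was not among those that passed, at 2020, 2090 and 2010 (-0.08, adjusted p = 0.64).

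The 2 members that went the other way in OlaR SUM1315 were STC2, at 1290, 1250 and 1240 adjusted reads against 425, 473 and 384 (1.57, SE 0.14, adjusted p = 3.49e-11), and PPP1R15A, at 548, 477 and 584 against 385, 336 and 340 (0.60, SE 0.10, adjusted p = 5.42e-06). Neither overlapped the parental olaparib libraries, and both were called in 14 of 14 alternative fits. Both had fallen with olaparib in parental cells. The OlaR means of STC2 and PPP1R15A, 1260 and 536, were under the untreated control means of 1620 and 822. The third STC2 control library, at 1180, was below the OlaR libraries. OlaR was not tested against untreated cells. In the same comparison the 4 mesenchymal markers were all called, ZEB1 (-1.45), CDH2 (-1.34) and VIM (-0.50) lower and FN1 (0.75) higher, the endothelial marker PECAM1 was lower (-1.31), and OlaR libraries were shallower. Their part in the members' values was not tested.

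In MDA-MB-468, 18 members were higher in OlaR and 14 lower, where 23.6% of all genes were higher and 27.9% lower. As DEGs 1 member was higher and 2 lower, and of all genes 7.13% and 7.12%. SLC7A5 had 2390, 2250 and 2310 adjusted reads in OlaR against 784, 740 and 905 in olaparib-treated parental cells (1.52, SE 0.10, adjusted p = 6.16e-19). PCK2 had 116, 104 and 89.2 against 299, 261 and 262 (-1.40, SE 0.12, adjusted p = 1.15e-14), and CTH 33.4, 28.5 and 35 against 59.8, 71.6 and 71.1 (-1.04). ATF4 had 5760, 5930 and 5690 against 3450, 3280 and 3440 (0.77, SE 0.05, adjusted p = 7.92e-18). OlaR libraries of ATF4 were thus above every parental library of this line. All 4 transporters were higher, SLC1A5, the glutamine carrier, by 0.67, SLC3A2 by 0.45 and SLC7A1 by 0.34. ASNS was higher at 403, 395 and 404 (0.90) and CHAC1 at 70.6, 71.3 and 76.2 (0.58). The OlaR means of ASNS and CHAC1, 401 and 72.7, were still under the untreated control means of 475 and 345, a comparison not tested. The 2 members higher in OlaR SUM1315 were higher here too, each called in 14 of 14 alternative fits. STC2 had 320, 345 and 375 against 247, 236 and 274, and PPP1R15A 157, 143 and 152 against 102, 93.8 and 115. CEBPG (-0.87), TRIB3 at 444, 382 and 446 (-0.34) and DDIT4 at 1180, 1160 and 1210 (-0.56) were lower. DDIT3 at 44.4, 55.8 and 41.6, SESN2 at 138, 154 and 150 and PSAT1 at 498, 494 and 470 did not pass. ESR1 was 2.42 higher in the same comparison. Of the 2 tested mesenchymal markers 1 was higher and 1 lower, and of 5 epithelial markers 1 was higher and 2 lower. OlaR libraries were also shallower. The part of the markers and of depth in these values was not tested.

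The difference between the lines in OlaR against parental olaparib passed for 33 members, 31 higher in MDA-MB-468 and 2 lower, where 21.4% and 20.3% of all genes were, and 17 were at least 2-fold higher and 1 lower, where 11.6% and 9.85% of all genes were. The median over members was 0.90 and over all genes 0.02. CHAC1 differed by 3.15 (SE 0.22, adjusted p = 4.18e-16), ASNS by 2.06, ATF4 by 1.78 (SE 0.14, adjusted p = 3.6e-14), DDIT4 by 1.78 and GARS by 1.27. STC2 (-1.11) and CEBPG (-0.46) were the members whose difference was lower in MDA-MB-468. STC2 was higher in OlaR in both lines, by more in SUM1315. The OlaR doses were 25 µM and 15 µM and the parental doses 8 µM and 3 µM.

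**Figure D4:**
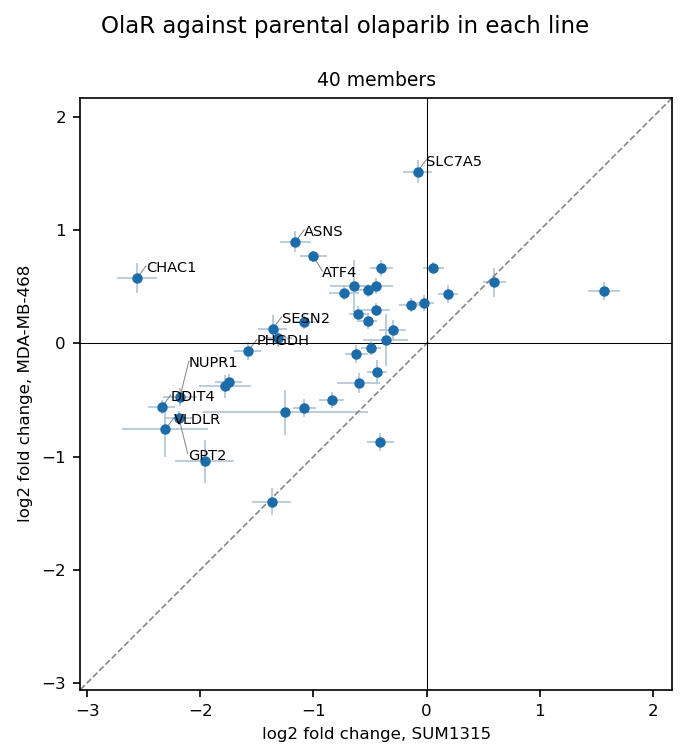
Difference of OlaR from olaparib-treated parental cells for each of the 40 tested members, as log2 with SE bars, in SUM1315 (x axis) and MDA-MB-468 (y axis); the dashed line marks equal differences. CHAC1 lies at -2.56 and 0.58, ATF4 at -1.0 and 0.77, and STC2, the furthest right, at 1.57 and 0.46.

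The fifth comparison added CDDP to OlaR cells. In SUM1315 the low dose raised 3 members and lowered 0, where 0.548% of all genes rose and 0.876% fell, and the high dose raised 12 and lowered 1, where 7.13% rose and 9.61% fell. Counts lowered by the low dose were 0 by edgeR and DESeq2 and 1 at an unadjusted p under 0.05. CHAC1 rose from 26.7, 29.2 and 27.3 adjusted reads to 66.2, 75.5 and 69.7 at the low dose (1.31, SE 0.18, adjusted p = 9.21e-05) and to 66.4, 130 and 95.8 at the high dose (1.73, SE 0.18, adjusted p = 1.76e-08). CTH rose to 77.1, 86.1 and 67.9 (1.29, SE 0.26, adjusted p = 0.000729). At the high dose every library of both genes was above every OlaR library without CDDP, as it was for CHAC1 at the low dose, though CHAC1 stayed under its level in parental cells. At the low dose CHAC1 was the only member DEG, where 0.190% of all genes were DEGs that rose, and at the high dose 0.929% of all genes were DEGs that rose and 2.89% that fell. SLC7A5 fell to 862, 1150 and 986 (-1.04, SE 0.13, adjusted p = 3.44e-07), with no overlap. NUPR1 rose to 135, 106 and 117 (0.86), TRIB3 to 302, 317 and 365 (0.81), GPT2 to 203, 188 and 172 (0.76) and PPP1R15A to 777, 894 and 769 (0.60). PSAT1 rose to 343, 388 and 312 (0.39). The total of 13 became 8 without the first library of OlaR with 4 µM CDDP, and DDIT3, at 52.7, 48.6 and 76.2 (0.60, adjusted p = 0.0415), and ATF4, at 1480, 1380 and 1350 (0.35, adjusted p = 0.0444), were called in 6 and 3 of 14 alternative fits. SESN2 at 252, 281 and 276, DDIT4 at 678, 655 and 602 and ASNS at 455, 338 and 394 did not pass.

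In OlaR MDA-MB-468 the low dose raised 3 members and lowered 2, where 1.84% and 2.91% of all genes rose and fell, and the high dose raised 4 and lowered 5, where 7.43% and 11.2% did. The 5 of the low dose became 3 without any 1 of the OlaR libraries, or without the second or the third library of OlaR with 1 µM CDDP. No member was a DEG. PPP1R15A rose to 284, 258 and 204 adjusted reads from 157, 143 and 152 (0.71, SE 0.13, adjusted p = 4.45e-05), CHAC1 to 104, 104 and 101 (0.50), and ASNS to 542, 559 and 498 (0.41). SLC7A5 fell to 1660, 1680 and 1770 (-0.44), CEBPB by 0.42 on the log2 scale, and DDIT4 to 1050, 935 and 876 (-0.32). CHAC1 under CDDP thus stood at about 100 adjusted reads in OlaR cells, while the parental cells with olaparib and the same dose had 325 to 398. ATF4 at 5770, 5600 and 5360, DDIT3 at 66.8, 41.7 and 53, TRIB3 at 475, 453 and 398, SESN2 at 151, 197 and 171 and PSAT1 at 497, 475 and 472 did not pass.

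The response to high CDDP was then compared between OlaR and olaparib-treated parental cells. In MDA-MB-468 it was lower in OlaR for 29 members and higher for 0, where 7.47% and 7.58% of all genes were, and the member median was -0.60 against -0.02. The count of higher ones was 0 by edgeR and DESeq2 and at an unadjusted p under 0.05. CHAC1 differed by -2.33 (SE 0.19, adjusted p = 1.19e-13), STC2 by -1.49, SESN2 by -1.37, SLC3A2 by -1.12, SLC7A5 by -1.08 and JDP2 by -1.06, the 6 that differed at least 2-fold, as 1.57% of all genes did in that direction. In SUM1315 4 members were higher and 4 lower, where 1.99% and 4.41% of all genes were. CHAC1 (1.53, SE 0.25, adjusted p = 0.00021) and CTH (1.49, SE 0.37, adjusted p = 0.0128) were higher in OlaR and SLC7A5 lower (-1.24, SE 0.18, adjusted p = 3.41e-05), each in 20 of 20 alternative fits, and each by at least 2-fold, as 0.464% of all genes were higher and 2.09% lower. The total of 8 became 4 or 5 without any of 10 of the 12 libraries taken singly.

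Between the lines, the high CDDP response of OlaR cells differed for 7 members, 1 higher in MDA-MB-468 and 6 lower, where 2.88% and 2.56% of all genes were. CHAC1 (-1.23, SE 0.22, adjusted p = 0.000672), TRIB3 (-0.75), NUPR1 (-0.74), GPT2 (-0.66) and SLC7A1 (-0.53) were lower. CTH (-1.11, adjusted p = 0.0406) and SLC7A5 (0.59, adjusted p = 0.0466) were called in 7 and 6 of 20 alternative fits. CHAC1 and CTH were the members at least 2-fold lower, as 0.526% of all genes were.

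**Figure D5:**
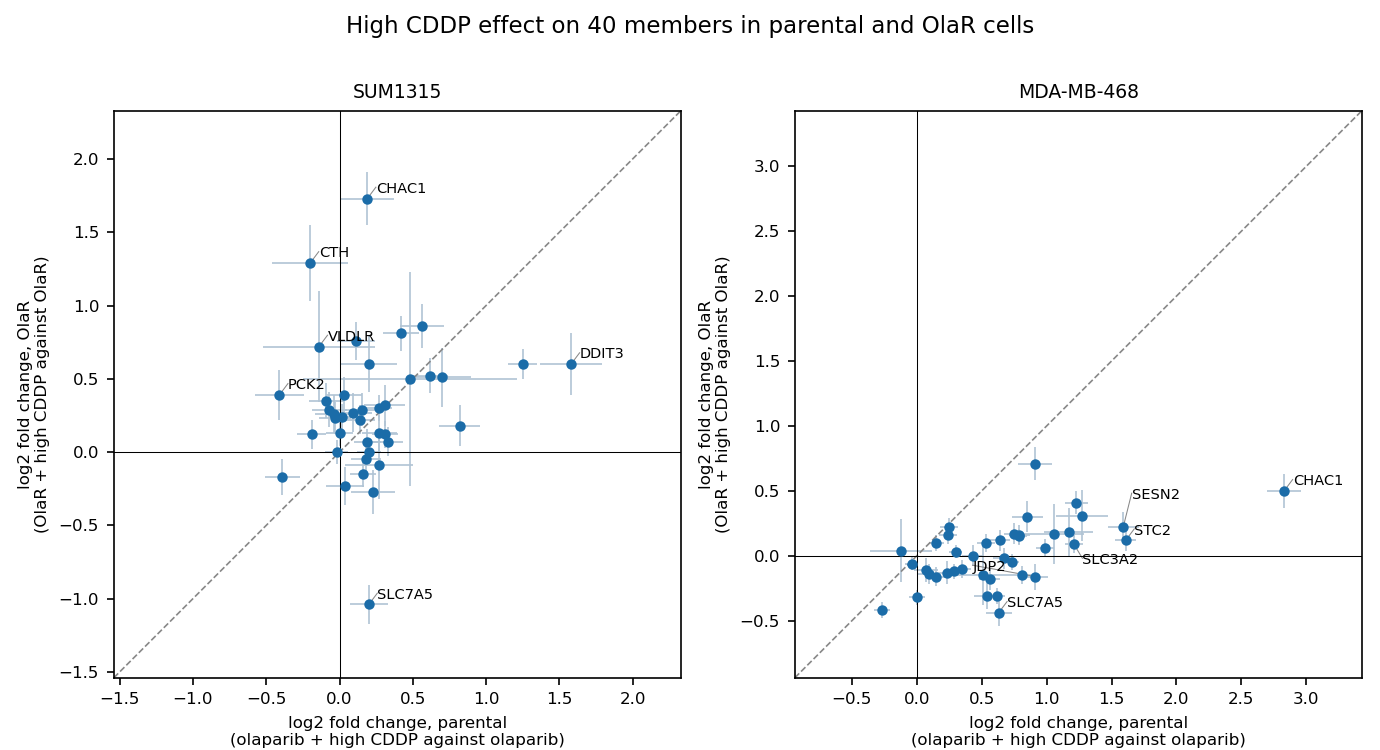
Response to high CDDP for each of the 40 tested members, as log2 differences with SE bars, in parental cells with olaparib (x axis) and in OlaR cells (y axis), SUM1315 left and MDA-MB-468 right; the dashed line marks equal responses. CHAC1 lies at 0.19 and 1.73 in SUM1315 and at 2.83 and 0.50 in MDA-MB-468.

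Genes of the pathway that are no members were followed by lists. Among 14 tested other targets of ATF4, olaparib alone lowered 6 and raised 2 in SUM1315 and lowered 8 and raised 1 in MDA-MB-468. Of all genes it lowered 17.1% and raised 18.9% in SUM1315, and lowered 9.11% and raised 12.4% in MDA-MB-468. In SUM1315 the DEGs were GDF15, a secreted stress cytokine, from 7650, 7870 and 8930 adjusted reads to 1450, 1530 and 1410 (-2.47), ADM2 (-1.87), PYCR1 (-1.58) and EIF4EBP1 (-1.17). In MDA-MB-468 they were SLC7A11, the cystine carrier (-1.59), ADM2 (-1.55), SLC6A9, a glycine carrier (-1.04), and GDF15 (-2.25), the last with under 8 adjusted reads in each of those libraries. With high CDDP added to olaparib in MDA-MB-468, 8 rose and 1 fell, among them ATF3, a stress-induced bZIP factor, from 52.1, 71.7 and 55.3 to 336, 322 and 293 (2.40), ADM2 (2.02), SLC7A11 (1.75) and GDF15 (2.43, under 8 adjusted reads). In SUM1315 the same step raised 3 and lowered 1, with ATF3 (1.28) and GDF15 (1.11) as DEGs. Of all genes this step raised 10.1% and lowered 13.1% in MDA-MB-468, and raised 4.35% and lowered 4.09% in SUM1315. In OlaR against parental olaparib 4 rose and 5 fell in SUM1315, with ADM2 (-3.5) and SLC7A11 (-1.48) as DEGs, and 6 rose and 1 fell in MDA-MB-468, with GDF15 (2.39, at most 18.5 adjusted reads in those libraries) as DEG. Of all genes 21.6% were higher and 25.7% lower in this comparison in SUM1315, and 23.6% and 27.9% in MDA-MB-468.

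Of 14 genes of the eIF2 kinases, eIF2 and eIF2B, olaparib raised 2 and lowered 4 in SUM1315 and raised 2 and lowered 2 in MDA-MB-468. Of the endoplasmic reticulum chaperones and ATF6 or XBP1 targets, 8 of 17 rose and 5 fell in SUM1315, and 3 of 16 rose and 4 fell in MDA-MB-468. Of the 8 other cytosolic synthetases, 3 fell in SUM1315 and 4 rose in MDA-MB-468. Of the 17 mitochondrial synthetases, 3 rose and 1 fell in SUM1315 and 2 rose in MDA-MB-468. For high CDDP added to olaparib in MDA-MB-468, 3 of the eIF2 list rose and 1 fell, 1 chaperone rose and 4 fell, 3 other cytosolic synthetases fell, and 2 mitochondrial synthetases rose and 2 fell. Over all genes, olaparib raised 18.9% and lowered 17.1% in SUM1315, and raised 12.4% and lowered 9.11% in MDA-MB-468. High CDDP added to olaparib raised 10.1% and lowered 13.1% of all genes in MDA-MB-468. No difference between these lists and the members, or between these lists and all genes, was tested.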

How the data were processed

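RNA from 54 samples, 3 for each of 9 conditions in SUM1315 and MDA-MB-468, was sequenced by the authors with a 3′ tag method (QuantSeq 3′ FWD). The submitters' processing notes name CASAVA 1.8.2, FastQC, STAR, HTSeq and edgeR, and the study's methods name hg38. The table the authors deposited as counts holds not whole reads but a signal per gene, namely edgeR pseudo-counts brought to a common library size of 5585170, called adjusted reads here. Inverting that step gave whole reads for 1483380 values, 100% of the table, with a relative difference of at most 1e-09 (tolerance 1e-06), and these reads gave the depth of 2070301 to 9268162 per library. The number of reads limits the precision of low genes such as VLDLR, ALDH1L2 and DDIT3, and of CHAC1, CTH and JDP2 in OlaR SUM1315. In OlaR SUM1315 without CDDP the recovered reads per library were 17 for CHAC1, 12 to 34 for CTH, 13 to 38 for JDP2 and 2 to 11 for VLDLR. The authors' columns of fold changes and p-values for their own comparisons were not used.

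Values were tested as log2(adjusted reads + 1) with limma 3.58.1 (trend, R 4.3.3), per line or over both lines, on genes with at least 10 adjusted reads in at least 3 libraries. Adjustment followed Benjamini and Hochberg over all genes tested, with calls at 0.05, and a DEG also changed at least 2-fold. Since the values turned out not to be counts, edgeR 4.0.16 and DESeq2 1.42.0 were run on the recovered reads as alternatives only. The other alternatives were a pseudocount of 5, no filter, median-of-ratios scaling, a replicate block, only the groups compared, and leaving out each library. The fitting steps were tested on simulated data for high CDDP against control. At each fold 100 genes were changed, among 13133 in SUM1315 and 13012 in MDA-MB-468. Every simulated gene had the same dispersion, and no library was made to stand apart. Of genes changed 2-fold, 84% were called in the right direction in SUM1315 and 83% in MDA-MB-468. Of genes changed 1.5-fold, 36% and 28% were, and of genes not changed 0.015% and 0.031% were called. A member that did not pass may therefore still have changed by a small amount. Values are given for each library for any member that was a DEG in a pairwise comparison of conditions. For ATF4, DDIT3, TRIB3, CHAC1, DDIT4, SESN2, ASNS, PSAT1 and SLC7A5 they are also given in some of the other comparisons, but not in all. Other members are described by counts and smallest adjusted p. The members and gene lists were chosen with earlier results of these data known. The difference in the olaparib effect with and without high CDDP was added after seeing the data. Promoter sequences come from RefSeq (GRCh38.p14).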

Additional observations from a re-analysis of the deposited data

Results flagged for a closer look

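Each of the following differences between groups was tested directly, as a difference of 2 differences, and passed. In SUM1315 the response to high CDDP differed between OlaR and olaparib-treated parental cells for 8 members, with the smallest adjusted p for SLC7A5 (-1.24), CHAC1 (1.53) and PPP1R15A (-0.65). In MDA-MB-468 it differed for 29 members, led by CHAC1 (-2.33), STC2 (-1.49) and SLC7A1 (-0.93). CHAC1 thus differed in opposite directions in the lines.

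Between the lines, as MDA-MB-468 minus SUM1315, the response to high CDDP without olaparib differed for 20 members, led by ATF4 (1.10), GPT2 (1.05) and SESN2 (1.24). With olaparib it differed for 14, led by CHAC1 (2.64), SESN2 (1.51) and SLC3A2 (1.25). In OlaR cells it differed for 7, led by CHAC1 (-1.23), TRIB3 (-0.75) and SLC7A1 (-0.53). OlaR against parental olaparib differed for 33, led by CHAC1 (3.15), GARS (1.27) and ATF4 (1.78). The doses differed between the lines in all 4 comparisons.

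The effect of olaparib differed with and without high CDDP for 20 members in SUM1315, led by ASNS (1.49), SARS (1.04) and STC2 (1.38), and for 30 in MDA-MB-468, led by CHAC1 (2.82), STC2 (1.62) and SLC7A1 (1.05). These differences share libraries with each other, and no cause was tested.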

How the results depend on the processing

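Of 508 called member differences, none reversed under any alternative. Outside the fits that left out a library, 3933 of 4064 values were still called and 131 were not, of which 42 were lost without a filter on low values and 28 with only the groups compared in the fit. Leaving out 1 library lost 422 of 4014 values, and 378 of the 508 differences were called in every fit. The numbers of members called stayed within 1.5 times in 200 of 208 such counts. The others were, in SUM1315, low CDDP (11 with only the groups compared, against 20), OlaR with low CDDP (1 with only the groups compared, against 3), olaparib with low CDDP against olaparib (11 with DESeq2, against 7), olaparib with high CDDP against olaparib (6 without the filter, against 11) and the CDDP response in OlaR minus parental (5 with edgeR under either scaling and 4 without the filter, against 8), and in MDA-MB-468 OlaR with low CDDP (3 without the filter, against 5). The cause was not tested.

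Requiring a 2-fold change left, in SUM1315, 14 members for olaparib, 1 for low and 5 for high CDDP, 1 and 2 for low and high CDDP added to olaparib, 0 for olaparib added to high CDDP, 17 for OlaR, 1 and 3 for low and high CDDP in OlaR, 3 for the CDDP response in OlaR minus parental and 10 for the olaparib effect with minus without CDDP. In MDA-MB-468 the same counts were 6, 0, 0, 3, 8, 0, 3, 0, 0, 6 and 9, and for the line differences in high CDDP without olaparib, with olaparib and in OlaR, and in OlaR against parental olaparib, 6, 5, 2 and 18.

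Leaving out 1 library gave ranges that passed 1.5 times for SUM1315 low CDDP (12 to 22), olaparib with low CDDP against olaparib (1 to 8), olaparib with high CDDP against olaparib (4 to 8), OlaR with high CDDP (8 to 12) and the CDDP response in OlaR minus parental (4 to 7), and for MDA-MB-468 olaparib with high CDDP against high CDDP (3 to 9) and OlaR with low CDDP (3 to 5). For the last, 3 came without any 1 OlaR library, or without library 2 or library 3 of OlaR with 1 µM CDDP.

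The replicate numbers did not pair the samples, with a median correlation of same-numbered deviations of -0.002 in SUM1315 and -0.005 in MDA-MB-468, and 11 and 4 of 27 libraries closest to their own number. With the replicate block, 4690 genes against 4732 were called for olaparib in SUM1315, and 28 members against 29 for the CDDP response in OlaR minus parental in MDA-MB-468.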
